A study of Rattus norvegicus with 16 samples.

Results

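The genes described are 10 that encode glycoproteins of the basement membrane: the laminin chains Lama2, Lama3, Lama4, Lama5, Lamb1, Lamb2 and Lamc1, the nidogens Nid1 and Nid2, and perlecan (Hspg2). They were chosen by name from the 32754 gene entries of the right ventricle count tables. 9 were found under their own symbol. Hspg2 was found only through a synonym that RefSeq pairs with the entry AABR07073181.1, which may hold part of the gene. All 10 were abundant enough to be tested, among 13458 tested genes. The tissue came from female Sprague Dawley rats aged 20 to 21 weeks labelled wild type (WT) or ERalpha -/- (KO), that is, with both copies of the estrogen receptor alpha gene disrupted. How the allele was made is not given in the sources used here. They had either sham surgery (SHAM) or pulmonary artery banding (PAB) for 10 weeks, which narrows the outflow of the right ventricle so that it works against a higher pressure. Each genotype thus has a SHAM and a PAB group, 4 groups in all with 4 libraries each. Nothing in the labels ties a replicate to its own animal. The p-values then rest on the spread between libraries only, which may be technical.

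A basement membrane is the thin sheet of matrix that surrounds each cardiomyocyte and underlies the endothelium of vessels. Laminins are its cell-binding part: an alpha, a beta and a gamma chain wind together into a cross-shaped trimer that polymerises on the cell surface, while nidogens and perlecan tie the laminin sheet to the network of collagen IV. The alpha chain sets which receptors a laminin binds. Lama2 is the alpha chain of muscle, which holds the cardiomyocyte through dystroglycan and integrins, Lama4 and Lama5 are the alpha chains of vessel walls, and Lama3 is best known from epithelia.

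Total counts were 22168110 to 34718633 per library. Counts of Esr1, the gene of estrogen receptor alpha, were 70 to 139 in the WT libraries and 7 to 21 in the KO libraries, so every library had the Esr1 level of its label. The tissue carried its markers: 10 cardiomyocyte genes summed to between 37970 and 58560 CPM (counts per 1e+06 mapped to genes) in every library, whereas 7 epithelial genes summed to at most 2.28 CPM. 3 sham libraries, WT SHAM 2, WT SHAM 3 and KO SHAM 4, stood apart. Their scores for mesothelial and epicardial markers, given as a mean z-score over the list, were 1.01 to 1.98, and for adipocyte markers 0.48 to 1.57, while no other library passed 0.28 on the first or 0.06 on the second. All 3 are sham libraries, so each comparison with a sham group is given with and without them where that changes a call.

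With banding Lama5 rose and Lama3 fell when both genotypes were averaged, and none of the other 8 members passed the test. The rise of Lama5 was 1.74-fold, 0.80 on the log2 scale (SE 0.18), with an adjusted p of 0.0237 in the quasi-likelihood test of edgeR. Lama3 fell 2-fold, by 1.0 on the log2 scale (SE 0.27, adjusted p 0.0429). The 2 of 10 members called stand beside 5.09% of all tested genes, with 3.24% called higher and 1.85% lower. Lama5 and Lama3 were proposed with their direction in these data known, so this share is a description only. With Nid2 besides, 3 members had an unadjusted p below 0.05, as did 22.7% of genes. The median log2 fold change was 0.15 over the members and -0.02 over all tested genes. In bulk tissue, fewer cells of a type and less RNA per cell cannot be told apart.

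**Figure D1:**
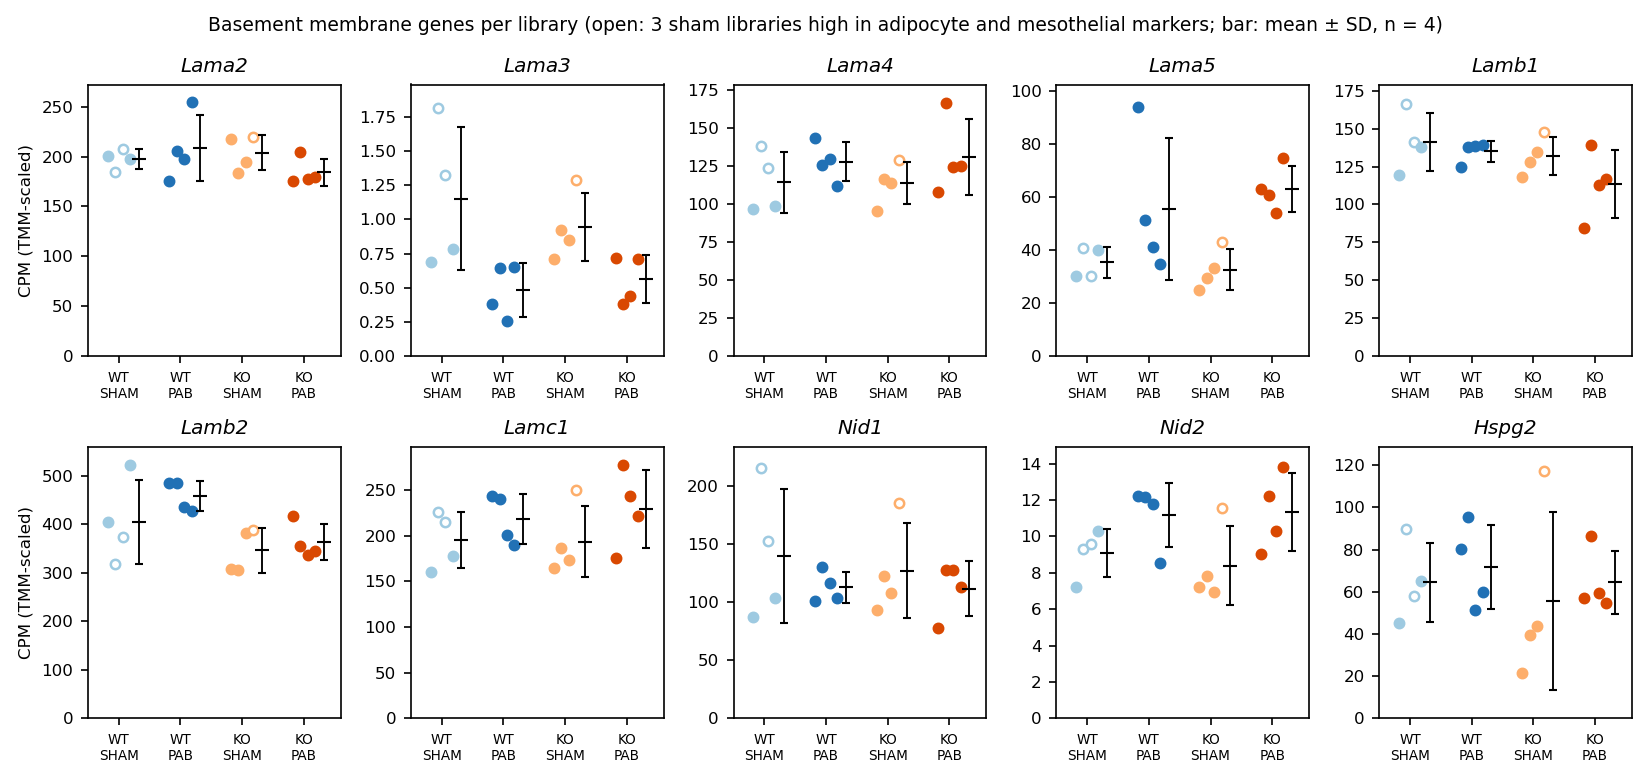
Levels of the 10 genes in each library, in CPM scaled by the trimmed mean of M-values (TMM), on axes that start at 0. Points are libraries, open points WT SHAM 2, WT SHAM 3 and KO SHAM 4, and bars the mean ± SD of 4 libraries; Lama5 reached 53.9 to 74.8 CPM in KO PAB against 24.7 to 42.9 in KO SHAM, and the open points were the highest of Lama3 and Nid1.

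Lama5 forms the broadly used laminin of mature vessels and many other basement membranes. Its level in the 4 WT SHAM libraries was 30.1, 40.7, 30.2 and 40.1 CPM, and in WT PAB 94.0, 51.4, 41.0 and 34.7 CPM. The 4 KO SHAM libraries had 24.7, 29.6, 33.1 and 42.9 CPM, and KO PAB had 63.0, 60.5, 53.9 and 74.8 CPM. In KO all banded libraries lay above all sham libraries, whereas in WT the groups overlapped and WT PAB 1 was far above the other 3. Within KO the log2 fold change was 0.95 (SE 0.26, adjusted p 0.0986 with edgeR), and within WT it was 0.65 (SE 0.26, adjusted p 0.380). Groups without overlap in this direction were found for 5.86% of all tested genes in KO. The WT value dropped to 0.26 without WT PAB 1 (adjusted p 0.765), and the averaged value was then 0.61 (adjusted p 0.0245). The averaged call was lost without WT SHAM 3 (0.77, adjusted p 0.0517) and without KO PAB 4 (0.75, adjusted p 0.0547). Without the 3 sham libraries that stood apart, Lama5 rose by 0.89 (SE 0.22, adjusted p 0.039).

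Lama3 was scarce, at 8 to 62 counts per library. Its level was 0.691, 1.81, 1.32 and 0.781 CPM in WT SHAM and 0.384, 0.646, 0.256 and 0.656 CPM in WT PAB. In KO SHAM it was 0.713, 0.921, 0.850 and 1.29 CPM, and in KO PAB 0.716, 0.381, 0.440 and 0.709 CPM. The WT groups did not overlap, which held in this direction for 2.33% of tested genes, while the KO groups just overlapped, at 0.713 and 0.716 CPM. The log2 fold change was -1.26 in WT (SE 0.38, adjusted p 0.326) and -0.75 in KO (SE 0.38, adjusted p 0.360). The 3 libraries that stood apart held the 3 highest values of Lama3: they averaged 1.48 CPM, against 0.791 CPM in the other 5 sham libraries, and their lowest, 1.29 CPM, was above the highest of the 5, 0.921 CPM. Without the 3 the averaged difference was -0.57 (SE 0.27) and the call was lost (adjusted p 0.212). It was also lost in 11 of the 16 fits that left out a library. Epithelial markers were low, with at most 41 counts of Krt7, 17 of Cdh1 and 12 of Epcam in any library. Their sum was highest in WT SHAM 2 (2.28 CPM), KO SHAM 4 (1.99 CPM) and WT SHAM 3 (0.632 CPM), the libraries that stood apart. Summed mesothelial markers ranged from 19.5 to 206 CPM over the sham libraries and from 21.3 to 31.2 CPM over the banded ones. The part of these cells in the Lama3 result was not tested beyond the fit without the 3 libraries and a fit with a covariate. That covariate was the sum of the adipocyte and mesothelial scores, so it does not stand for a single cell type. With it Lama3 differed by -0.49 (adjusted p 0.214).

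The promoters of the 2 genes that moved in opposite directions differ in make-up. They are shown because Lama5 and Lama3 were the members past the test. Both come from RefSeq for the rat build GRCr8, which is not the build of the counts (Rnor_6.0), and each runs from 250 bases before the annotated start to 50 after it, read on the strand of the gene. That of Lama5 lies at chr3:187695925-187696224 on the minus strand and that of Lama3 at chr18:3952517-3952816 on the plus strand, in both cases the upstream flank and first bases of the gene. Capitals mark the GC box (GGGCGG or, on the other strand, CCGCCC) in Lama5 and the AP-1 motif (TGACTCA or TGAGTCA) in Lama3.
Lama5: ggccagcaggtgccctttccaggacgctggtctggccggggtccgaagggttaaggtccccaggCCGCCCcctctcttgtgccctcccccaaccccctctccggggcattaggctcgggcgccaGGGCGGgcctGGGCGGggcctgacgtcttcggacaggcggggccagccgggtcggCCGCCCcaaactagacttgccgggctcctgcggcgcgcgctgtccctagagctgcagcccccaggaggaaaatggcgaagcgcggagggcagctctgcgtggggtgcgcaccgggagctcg
Lama3: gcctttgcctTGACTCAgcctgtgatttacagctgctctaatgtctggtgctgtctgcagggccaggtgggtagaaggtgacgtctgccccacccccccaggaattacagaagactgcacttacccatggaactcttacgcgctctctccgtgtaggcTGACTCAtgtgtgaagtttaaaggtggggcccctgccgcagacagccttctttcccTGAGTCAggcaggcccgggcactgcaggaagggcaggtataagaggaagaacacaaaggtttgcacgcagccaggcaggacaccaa
The Lama5 window has 4 GC boxes, which begin at -186, -126, -116 and -71 from the start, no AP-1 motif, and 73% G or C. Of 33469 rat promoters of the same length, 33.1% hold at least 1 GC box and 4.64% at least 4, and the median G or C content is 51.7%. The Lama3 window has 3 AP-1 motifs, which begin at -240, -92 and -36, no GC box, and 56.7% G or C. At least 1 AP-1 motif is found in 4.63% of promoters and at least 3 in 0.00896%. AP-1 is the letter motif bound by Fos and Jun proteins, and the GC box that bound by Sp factors. The motifs to mark were chosen after the sequences were read, from 6 searched on both strands (the others were the TATA box TATAAA, the CCAAT box, the TEAD motif CATTCC and the core TGACG of the cyclic AMP element, and only the last is found, once in each window), and a match describes the letters only. None of the other 6 members with a promoter in the RefSeq table (Lama2, Lama4, Lamb1, Lamc1, Nid1 and Hspg2) holds an AP-1 motif in its window, and Lamb2 and Nid2 were not looked at. The GC box is not particular to Lama5 among the members. Hspg2 has 6 and Lamc1 5, Lamb1 and Nid1 have 2 each, Lama2 has 1 and Lama4 has 0. The windows of Lamc1 (71.7% G or C) and Hspg2 (70%) are near that of Lama5.

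The other alpha chains did not pass the test. Lama2, the muscle chain, spanned 184 to 208 CPM in the WT SHAM libraries and 176 to 255 CPM after banding, and in KO it spanned 184 to 219 CPM without and 175 to 204 CPM with banding. The groups overlapped throughout and the averaged difference was -0.03 (SE 0.08, adjusted p 0.832). Lama4, the chain of capillaries, spanned 96.4 to 138 CPM in the WT SHAM libraries and 112 to 143 CPM after banding, and in KO 95.2 to 129 CPM without and 108 to 166 CPM with banding. It differed by 0.18 (SE 0.10, adjusted p 0.314), and by 0.33 without the 3 sham libraries (SE 0.10, adjusted p 0.0631), which had held the 3 highest sham values. Neither value passed the threshold.

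The beta chains, Lamb1 and Lamb2, are alternatives in the laminin trimer. Lamb1, the more general of the pair, spanned 120 to 166 CPM in the WT SHAM libraries and 124 to 139 CPM after banding, and in KO 118 to 148 CPM without and 84.7 to 139 CPM with banding. It differed by -0.14 (SE 0.09, adjusted p 0.383). Lamb2, the chain of mature muscle and of the neuromuscular junction, had 404, 317, 374 and 522 CPM in WT SHAM and 485, 485, 435 and 427 CPM in WT PAB. In KO SHAM it had 307, 306, 382 and 389 CPM, and in KO PAB 417, 354, 336 and 345 CPM. Its averaged difference with banding was 0.13 (SE 0.10, adjusted p 0.478), and the groups overlapped in both genotypes. The chain that all of these trimers share, Lamc1, had 160, 226, 215 and 178 CPM in WT SHAM and 244, 240, 200 and 189 CPM in WT PAB. It had 164, 186, 173 and 250 CPM in KO SHAM and 175, 277, 243 and 221 CPM in KO PAB. The highest KO SHAM value and the highest pair in WT SHAM belong to the 3 libraries that stood apart. With all libraries the averaged difference of Lamc1 was 0.20 (SE 0.12, adjusted p 0.312), and without the 3 it rose by 0.38 (SE 0.11, adjusted p 0.0461).

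The nidogens link laminin to collagen IV. Nid1, the main form, had 87.5, 216, 152 and 104 CPM in WT SHAM and 101, 130, 116 and 104 CPM in WT PAB. It had 92.9, 122, 108 and 185 CPM in KO SHAM and 77.8, 127, 128 and 113 CPM in KO PAB. The 3 libraries that stood apart averaged 184 CPM of Nid1 and the other 5 sham libraries 103 CPM, without overlap. The averaged difference was -0.25 with all libraries (SE 0.19, adjusted p 0.453) and turned to 0.15 without the 3 (SE 0.12, adjusted p 0.500), neither past the test. Nid2, its scarcer relative with 157 to 422 counts per library, had 7.24, 9.31, 9.56 and 10.3 CPM in WT SHAM and 12.2, 12.2, 11.8 and 8.52 CPM in WT PAB. It had 7.22, 7.83, 6.93 and 11.6 CPM in KO SHAM and 9.00, 12.2, 10.3 and 13.8 CPM in KO PAB. In WT 3 of 4 banded libraries exceeded every sham library, and in KO all 4 exceeded 3 of the 4 sham libraries. The averaged difference was 0.36 (SE 0.13, adjusted p 0.112), and Nid2 rose by 0.49 without the 3 libraries (SE 0.13, adjusted p 0.0427) and by 0.47 without KO SHAM 4 alone (adjusted p 0.0304).

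Perlecan, a heparan sulfate proteoglycan that binds growth factors and dystroglycan, varied widely among the KO SHAM libraries, at 21.4, 39.7, 43.9 and 117 CPM. The 4 WT SHAM libraries had 45.0, 89.7, 58.2 and 65.3 CPM of Hspg2. The banded libraries had 80.1, 95.3, 51.4 and 59.8 CPM in WT and 57.2, 86.5, 59.5 and 54.5 CPM in KO. The lowest and the highest of all 16 values were both from KO SHAM. The averaged difference was 0.18 (SE 0.28, adjusted p 0.751), with 0.52 without KO SHAM 4 (adjusted p 0.140), 0.05 without KO SHAM 1 (adjusted p 0.931) and 0.63 without the 3 libraries that stood apart (SE 0.22, adjusted p 0.098).

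**Figure D2:**
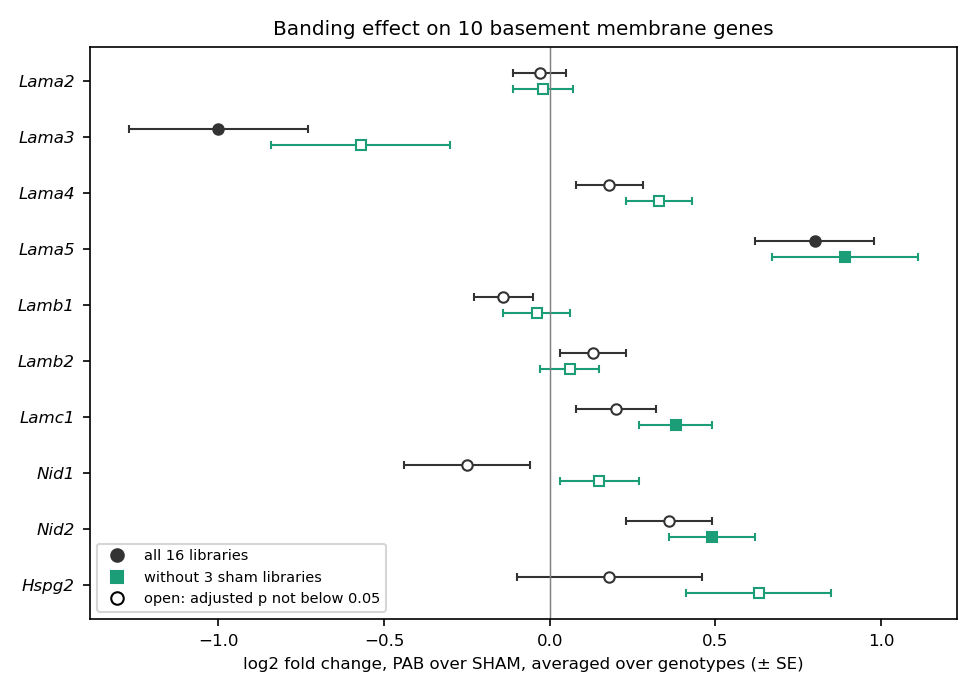
Log2 fold change of each gene with banding, averaged over WT and KO, with its standard error, from all 16 libraries (circles) and without WT SHAM 2, WT SHAM 3 and KO SHAM 4 (squares). Filled symbols have an adjusted p below 0.05; Lama5 was past the threshold both ways, Lama3 (-1.0 and -0.57) only with all libraries, and Lamc1 and Nid2 only without the 3.

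Without the 3 libraries the members called were thus Lama5, Lamc1 and Nid2, all 3 higher, beside 7% of all 13583 genes then tested. The median over all 10 members was 0.24, against 0.01 over all genes. That fit leaves 2 WT SHAM and 3 KO SHAM libraries, and the choice of libraries was made after the data were seen. Library by library, the scores for fibroblast and for smooth muscle and pericyte markers were also highest in WT SHAM 2 (2.01 and 1.58) and KO SHAM 4 (1.28 and 1.33), and WT SHAM 3 had 1.04 and 0.50. Beside Lama3, Nid1, Lama4, Lamb1 and Lamc1 were higher in all 3 than in any of the other 5 sham libraries, by 1.79, 1.25, 1.19 and 1.34 times on average. Lama2 (1.02 times), Lama5 (1.2), Lamb2 (0.937), Nid2 (1.29) and Hspg2 (2.05) overlapped between them. How many of all tested genes separate these libraries in the same way was not computed. The separations are therefore not read as particular to the members. With all 16 libraries, endothelial markers, of cells that make Lama4 and Lama5, had 0 of 9 past the banding test and a median of -0.03. Cardiomyocyte markers had 0 of 10 past it. Mesothelial markers had 5 of 11 lower and smooth muscle and pericyte markers 3 of 11 lower, where 1.85% of all tested genes were called lower. Schwann cell markers, of cells that also make Lama2 and Lama4, had 3 of 7 lower (Cdh19 and Scn7a among them), with a median of -0.77. Without the 3 libraries 1 of 11 mesothelial and 0 of 11 smooth muscle and pericyte markers were lower, beside 431 of all 13583 genes. The 3 were picked by their mesothelial and adipocyte scores, so fewer mesothelial calls follow from that choice. The mesothelial median was -3.46 with all libraries and still -1.19 without the 3. In that fit 3 of 7 Schwann cell markers were lower, with a median of -0.36, and still 0 of 9 endothelial and 0 of 10 cardiomyocyte markers passed. What these cells contributed to the levels of the members was not tested.

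**Figure D3:**
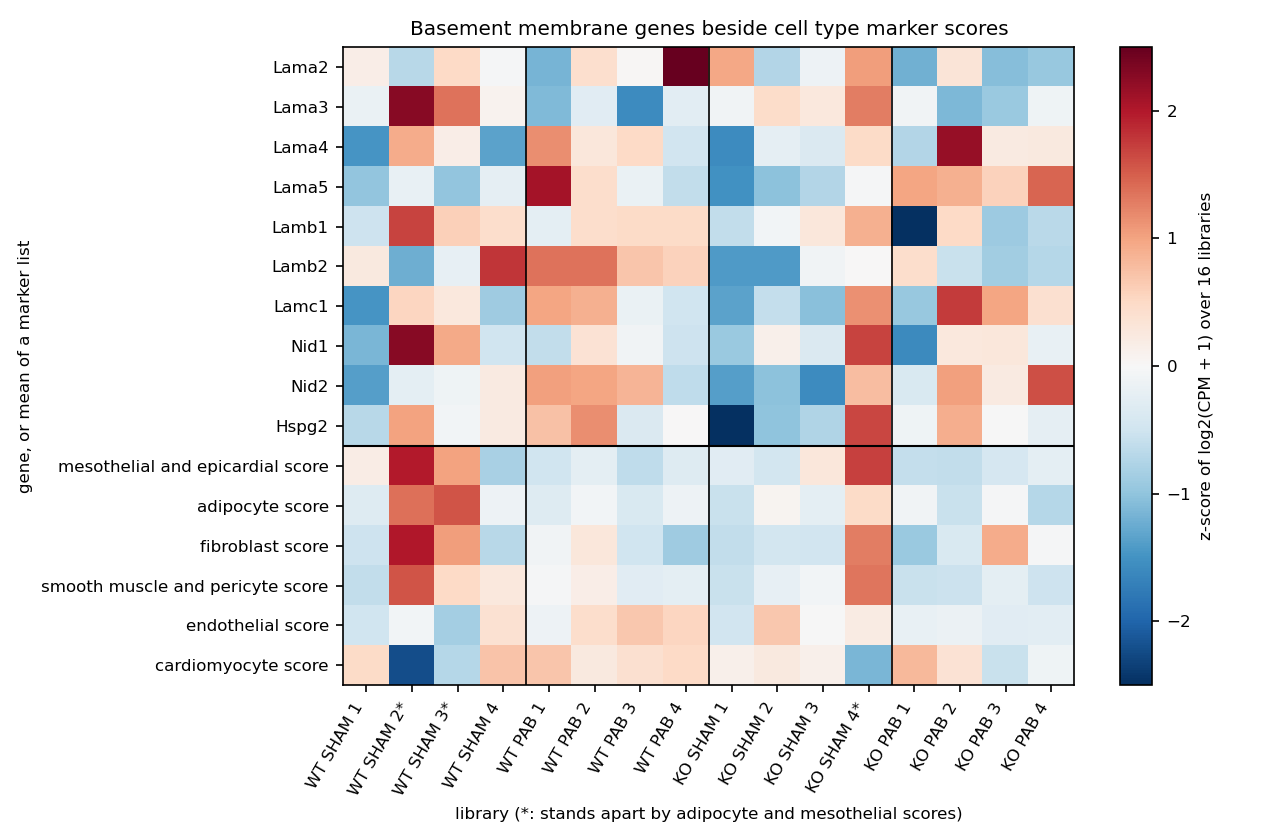
Z-scores of log2(CPM + 1) over the 16 libraries for the 10 genes (upper rows), and mean z-scores of 6 cell type marker lists (lower rows). Asterisks mark the 3 sham libraries that stood apart. Lama3 and Nid1 were high in the same 3 columns as the mesothelial score. The fibroblast score was highest in these columns but also reached 0.93 in KO PAB 3. Lama5 was high in WT PAB 1 and the 4 KO PAB libraries.

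Within a genotype no member passed the test. In WT, 0 of 10 were called by edgeR, beside 0.00743% of all genes, and 0 by DESeq2 and by limma-voom; 2 (Lama3 and Lama5) had an unadjusted p below 0.05, as did 11.7% of genes. In KO, 0 of 10 were called by edgeR, beside 0.632% of all genes, and 0 by limma-voom, with 2 (Lama5 and Nid2) at an unadjusted p below 0.05, as were 15.6% of genes. DESeq2 called Lama5 in KO, with a log2 fold change of 0.96 and an adjusted p of 0.0149, as did edgeR on the KO libraries alone (0.96, adjusted p 0.0358). Over all genes these fits called 509 of 13458 and 155 of 12987, against 85 of 13458 in the main fit. Nid2 differed by 0.43 in KO (SE 0.18, adjusted p 0.272) and by 0.30 in WT (SE 0.18, adjusted p 0.541). The other 7 members differed by between -0.31 and 0.24 in either genotype.

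Ratios of counts within a library show how the chains shifted against each other, free of the scaling between libraries. A ratio depends on gene length and is compared here only between groups. Of 7 ratios computed, 4 differed between SHAM and PAB by an exact permutation test, two-sided, with labels exchanged within each genotype. The ratios with Lama5 or Lama3 were chosen with the direction of these genes known. They and their p-values are read as description only. With all 16 libraries the smallest p this test can give is 0.000408 over both genotypes, and 0.0286 within a genotype. Without the 3 sham libraries that stood apart it is 0.0019 over both genotypes. The ratios use the same libraries as the gene tests and are not independent evidence of them.

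The ratio of Lama5 to the muscle chain Lama2 was 0.180 ± 0.0380 without and 0.282 ± 0.175 with banding in WT, and 0.160 ± 0.0343 without and 0.344 ± 0.0558 with banding in KO (SD, n = 4). Over both genotypes it rose 1.74-fold (exact permutation p 0.00653, adjusted over 7 ratios 0.0114), with no overlap in KO. Lama5 against the other vascular chain, Lama4, went from 0.284 ± 0.0358 to 0.495 ± 0.115 in KO and from 0.315 ± 0.0681 to 0.423 ± 0.162 in WT (SD, n = 4), a 1.49-fold rise over both (exact permutation p 0.00653, adjusted 0.0114). The banded KO libraries all exceeded the sham ones, from 0.364 against 0.332 at the nearest. In WT the 2 groups overlapped in both ratios (exact p 0.343 against Lama2 and 0.229 against Lama4, by permutation). Without the 3 sham libraries that stood apart the difference against Lama4 was 0.52 on the log2 scale with an exact permutation p of 0.0571, and that against Lama2 was 0.86 with 0.0267.

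Lama3 to Lama5 was the ratio with the widest shift. It was 0.0230, 0.0445, 0.0439 and 0.0195 in WT SHAM and 0.00409, 0.0126, 0.00623 and 0.0189 in WT PAB. In KO SHAM it was 0.0289, 0.0311, 0.0257 and 0.0301, and in KO PAB 0.0114, 0.00629, 0.00816 and 0.00948. Every banded library was below every sham library of its genotype, though in WT the nearest pair, 0.0189 and 0.0195, almost met. The ratio fell 3.41-fold over both genotypes (exact permutation p 0.000408, the smallest possible, adjusted 0.00286), and by 1.49 on the log2 scale without the 3 sham libraries (exact permutation p 0.00762). Its direction follows from the opposite changes of the 2 genes, for which it was chosen.

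The 2 nidogens also shifted against each other. Nid1 to Nid2 was 12.1, 23.2, 15.9 and 10.1 in WT SHAM and 8.24, 10.7, 9.85 and 12.2 in WT PAB. It was 12.9, 15.6, 15.6 and 16.0 in KO SHAM and 8.64, 10.4, 12.4 and 8.17 in KO PAB. The KO groups did not overlap and the WT groups did. The ratio fell 1.48-fold (exact permutation p 0.00327, adjusted 0.0114), and by 0.35 on the log2 scale without the 3 sham libraries (exact permutation p 0.0419). The other 3 ratios missed the threshold: Lama2 to Lama4 differed by -0.22 on the log2 scale (exact permutation p 0.129), Lamb1 to Lamb2 by -0.29 (0.0812) and Hspg2 to Lamc1 by 0.10 (0.656).

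**Figure D4:**
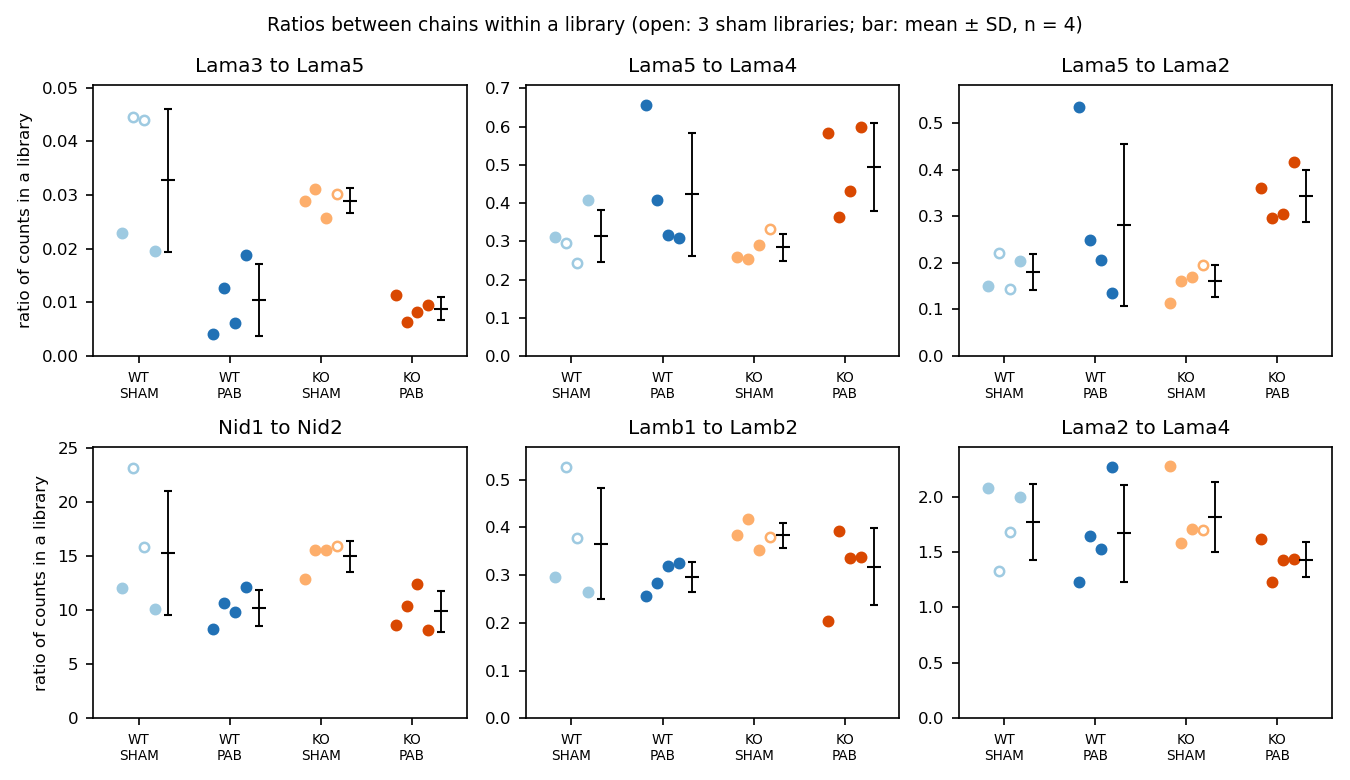
Ratios of counts between members within each library, with the mean ± SD of 4 libraries, on axes that start at 0; open points are the 3 sham libraries that stood apart. Lama3 to Lama5 was lower in every banded library than in any sham library of its genotype, while Lamb1 to Lamb2 and Lama2 to Lama4 overlapped.

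Loss of estrogen receptor alpha called no member, with or without load. Between KO and WT sham libraries edgeR called 0 of 10 members, beside 0.00743% of all genes, with 0 at an unadjusted p below 0.05 (2.03% of genes), and DESeq2 and limma-voom also called 0. Between KO and WT banded libraries it called 0, again beside 0.00743%, with 1 (Lamb2) at an unadjusted p below 0.05 (4.52% of genes), and DESeq2 and limma-voom called 0. Lamb2 was lower in all 4 KO PAB libraries (336 to 417 CPM) than in all 4 WT PAB libraries (427 to 485 CPM), a separation in that direction found for 1.63% of tested genes. Its difference was -0.34 (SE 0.14, p 0.0299 unadjusted and 0.999 adjusted with edgeR). In sham it was -0.23 (SE 0.14, adjusted p 0.996), -0.08 without WT SHAM 4 (adjusted p 0.920), and -0.48 without the 3 libraries that stood apart (SE 0.14, p 0.00415 unadjusted and 0.997 adjusted with edgeR).

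Whether load acted on the members differently in KO and WT was tested by the interaction. edgeR called 0 of 10 members, and 0 of 13458 genes (0%), with 0 members at an unadjusted p below 0.05, where 1.76% of all genes lay, and DESeq2 and limma-voom called 0 members. The banding effect on Lama5 was larger in KO than in WT by 0.31 (SE 0.37), and that on Lama3 differed by 0.51 (SE 0.53), with an adjusted p of 0.999 for each. The standard errors leave room for differences of either sign.

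Of the genes around these 10, collagen IV and the integrin chain Itga6 were among those that rose with banding. These lists were not chosen independently of the data. Their counts stand beside 3.24% of all tested genes called higher and 1.85% called lower with all libraries, and 7% called in either direction without the 3. The remaining laminin chains held no call among 3 tested. Lamb3, which pairs with Lama3 in the laminin of epithelia, differed by 0.27 (adjusted p 0.393), and Lamc3 by -1.39 (adjusted p 0.159), or -0.04 without the 3 sham libraries. Lama1, the embryonic chain, had at most 1 count. Of 20 other basement membrane components 2 rose and none fell, around a median of -0.20, or 3 rose around a median of 0.29 without the 3 libraries, where the median of all genes was -0.02 and 0.01. At an unadjusted edgeR p below 0.05, 3 of the 20 were higher and 6 lower with all libraries. The 2 that rose with all libraries were Col4a1 and Col4a2, the chains of the main collagen IV network. The chains Col4a3 (-0.23), Col4a4 (-0.33), Col4a5 (-0.8) and Col4a6 (-2.6) were lower, none past the test. Without the 3 sham libraries they differed by 0.09, 0.03, 0.1 and 0.9, again none past the test. Col4a1 was at 268 ± 23.8 CPM in WT SHAM against 337 ± 38.2 CPM after banding, and in KO at 253 ± 26.2 CPM against 358 ± 38.4 CPM after banding (SD, n = 4). It rose by 0.42 (SE 0.08, adjusted p 0.01). Col4a2 rose by 0.38 (SE 0.09, adjusted p 0.0322), and both stayed past the test without the 3 sham libraries (0.46 and 0.41), where the netrin Ntn4, which binds laminin, also passed (0.44, adjusted p 0.0341).

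Among 11 laminin receptors 1 rose, where 3.24% of all tested genes did, the integrin chain Itga6, which binds laminins that contain Lama5 or Lama3. It had 70.3, 70.01, 72.2 and 86.1 CPM in WT SHAM and 96.3, 97.9, 120 and 131 CPM after banding. In KO it had 72.3, 96.7, 92.1 and 78.2 CPM without and 90.2, 124, 106 and 92.8 CPM with banding. The WT groups did not overlap, as for 2.6% of genes in this direction, and the KO groups did, and the averaged rise was 0.43 (SE 0.09, adjusted p 0.018). Without the 3 sham libraries it was 0.38 (adjusted p 0.0616), and Itgb1, the beta chain that these integrins share, then passed (0.33, adjusted p 0.0477). The muscle laminin receptors Itga7 (-0.03, adjusted p 0.908) and dystroglycan, Dag1 (-0.04, SE 0.05, adjusted p 0.689), did not pass the test.

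The dystrophin glycoprotein complex joins dystroglycan to the cytoskeleton. Of its 11 genes 2 rose and none fell, around a median of -0.04. Of these the adaptor Sntb1 (beta-1-syntrophin) rose by 0.46 (SE 0.12, adjusted p 0.0386), a call lost without the 3 (0.47, adjusted p 0.0789), where Sgcb fell (-0.21, adjusted p 0.0421). Of 14 genes that build the laminin-binding sugar of dystroglycan 1 rose, Pomgnt2, an enzyme of its early steps, by 0.49 (SE 0.13, adjusted p 0.0382; 0.49 and 0.0496 without the 3). None of these genes was called within a genotype, between genotypes or in the interaction with all 16 libraries. Without the 3, edgeR called 2 of the 20 other basement membrane components higher within KO and 0 lower. Over all 13583 genes it then called 193 higher and 151 lower. The 2 components were Col4a1 (0.58, adjusted p 0.0349) and Ntn4 (0.67, adjusted p 0.0373).

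**Figure D5:**
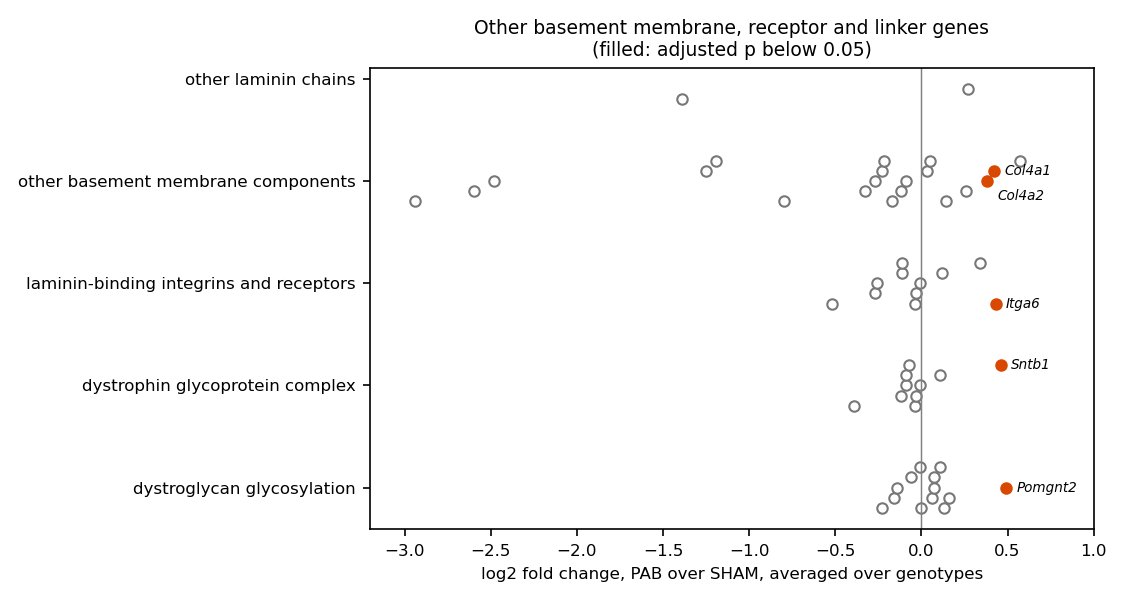
Log2 fold change with banding, averaged over WT and KO, of the tested genes reported here from 5 lists around the 10 members; filled points have an adjusted p below 0.05. The 5 filled points (Col4a1, Col4a2, Itga6, Sntb1 and Pomgnt2) lie between 0.38 and 0.49, and the medians of the receptor and dystrophin complex lists were each -0.04.

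Genes whose pattern over the 16 libraries was most like that of Lama5 or Lama3 were sought among 10909 tested genes, by the mean absolute difference of z-scores of log2(CPM + 1), which was 1.13 for the median gene against Lama5 and 1.11 against Lama3. For Lama5 the nearest were Tnip2 (0.254) and Nfkb1 (0.265), both of the NF-kappaB pathway, the glycosyltransferase Galnt2 (0.283), the actin regulator Mical2 (0.285) and the zinc finger gene Zbtb47 (0.297). For Lama3 they were Plagl1 (0.298), Rab6b (0.362), Gpm6a (0.369), Pttg1ip (0.376) and Lrrc49 (0.377). Gpm6a is also among the 11 mesothelial and epicardial markers used above. These likenesses are a description over libraries that share groups and the 3 sham libraries that stood apart.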

How the data were processed

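RNA was taken from 10 mg of right ventricle, and stranded mRNA libraries were made with a TruSeq kit, per the labels' protocols. The deposited values are expected counts per gene entry, whole numbers as deposited. Per the submitters' processing notes the reads were processed with STAR 2.5.3a and RSEM 1.3.0 on the rat build Rnor_6.0. The annotation, the strand setting and the rounding are not given in the sources used here, so reads of overlapping or antisense genes may be shared.

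Counts were scaled by TMM and tested with edgeR 4.0.16 in R 4.3.3: filterByExpr (minimum count 10), then a robust quasi-likelihood fit of 4 group means over 16 libraries. p-values were adjusted by Benjamini-Hochberg over all 13458 tested genes, with a threshold of 0.05. The SE is the log2 fold change over the square root of F, and CPM levels use TMM-scaled totals. Counts from PCR-amplified reads without molecular identifiers are not independent molecules. The procedure was tested on simulated data. Count ratios within a library were compared by exact permutation tests. Promoters came from RefSeq (GRCr8) and matched 8 of 10 members. No transcript or protein lengths were used here, so levels were not compared between genes and the planned order of levels per length was not made.

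All 10 members were named, with every gene of 5 surrounding lists past the test, Esr1 as the check of genotype, and the 5 genes most like Lama5 and Lama3. Of the lists, genes past the test only without the 3 sham libraries were named after their values were seen. Some genes of the lists are counted but not reported here. The members and lists were chosen with earlier results of these data known. Alternatives were DESeq2 1.42.0, limma-voom (limma 3.58.1), RLE size factors, no filter, a filter of 1 CPM in 4 libraries, only the groups compared, the replicate number as a block, and leaving out each library. A fit without 3 sham libraries (adipocyte and mesothelial scores above 0.4) and a fit with these scores as a covariate were chosen after seeing the data.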

Additional observations from a re-analysis of the deposited data

Results flagged for a closer look

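Of 68 sets of 4 libraries examined, 5 held a library whose gap to the nearest other library took up more of the range than Dixon's 95% value allows. Chance flags about 1 in 20 such sets. Among the KO PAB libraries, replicate 2 was the highest for Hspg2 at 86.5 CPM and for Lama2 at 204 CPM. WT PAB 1 had the lowest Lamb1 level of its group, 124 CPM, where the other 3 had 138 to 139 CPM. WT PAB 4 had the lowest Nid2 level of its group, 8.52 CPM. KO SHAM 1 had the lowest ratio of Nid1 to Nid2 of its group, 12.9.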

How the results depend on the processing

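For banding averaged over genotypes, 1 member was called with no filter, 1 with the filter of 1 CPM (where Lama3 was not tested) and 0 to 2 when a library was left out. Lama5 stayed between 0.61 and 0.89 over 24 alternatives, with an adjusted p of 0.00075 to 0.0547, and below 0.05 in 22. Lama3 stayed between -1.09 and -0.49 over 23 alternatives, with an adjusted p of 0.012 to 0.214, and below 0.05 in 8. With the marker score as a covariate the 2 members called were Lama5 and Lamc1 (0.39, adjusted p 0.0469). In KO, 1 member was called by DESeq2 and 1 by the fit to the groups compared, and 0 to 1 when a library was left out, the 1 being Lama5 without WT PAB 1 (0.95, adjusted p 0.0146). Over all genes these fits called 509 of 13458, 155 of 12987 and, without WT PAB 1, 275 of 13637. In WT, between genotypes and in the interaction, no member was called under any alternative. The cause of these changes was not tested.

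With the replicate number as a block, 1 member was called in the averaged comparison, since Lama3 had an adjusted p of 0.0656, and Nid2 in PAB between genotypes turned to -0.01. The replicate block changed no other call. The numbers do not pair the libraries: deviations of 24 same-numbered pairs correlated at -0.62 to 0.56, and 3 of 16 libraries correlated best with their own number.

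The differences that changed sign passed the test in no fit. Without the 3 sham libraries, and with the score as a covariate, Nid1 turned to 0.15 and 0.19 for averaged banding, to 0.24 and 0.25 in WT and to 0.05 and 0.14 in KO, and Lamb1 in WT to 0.07 and 0.06. Lamb2 in WT turned to -0.01 without the 3. Between genotypes in SHAM, Lama3 turned to 0.17 and 0.07, Lama4 to 0.16 and 0.10 (0.01 with limma-voom), Lamc1 to 0.05 and 0.10 and Nid1 to 0.18 and 0.15. In PAB, Nid1 turned to 0.03 with the covariate. In the interaction, Lama4 turned to -0.12 and -0.04 and Nid1 to -0.19 and -0.11, Lamb2 to 0.14 without the 3 and Lamc1 to -0.01 with the covariate.

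When each library was left out in turn, the ranges that crossed 0 were, for banding in WT, -0.03 to 0.15 for Lama2, -0.14 to 0.03 for Lamb1 and -0.02 to 0.35 for Hspg2. For banding in KO they were -0.31 to 0.06 for Nid1 and -0.06 to 0.89 for Hspg2. Between genotypes in SHAM they were -0.49 to 0.02 for Lama3, -0.08 to 0.10 for Lama4, -0.16 to 0.07 for Lamc1, -0.38 to 0.15 for Nid1 and -0.89 to 0.05 for Hspg2. In PAB they were -0.10 to 0.12 for Lama4, -0.03 to 0.18 for Lamc1, -0.09 to 0.12 for both Nid1 and Nid2, and -0.33 to 0.01 for Hspg2. For the interaction they were -0.09 to 0.13 for Lama4, -0.02 to 0.24 for Lamc1, -0.16 to 0.37 for Nid1 and -0.21 to 0.74 for Hspg2.

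Of the ratios, Lama5 to Lama4 missed the threshold without the 3 sham libraries (0.52, exact permutation p 0.0571). Lama2 to Lama4 ranged from -0.30 to -0.15 and passed without WT SHAM 2 or WT PAB 4, Lamb1 to Lamb2 ranged from -0.35 to -0.18 and passed without WT SHAM 4 or KO PAB 2, and Hspg2 to Lamc1 ranged from -0.04 to 0.27. Lama3, at 8 to 62 counts, was the member most limited by depth.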
